A study of Rattus norvegicus with 9 samples.

Results

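The comparison described here sets the pubococcygeus muscle of rats carrying a surgical model of stress urinary incontinence (SUI) against the same muscle of untouched rats, across all genes. It uses 6 of the series' 9 RNA-seq libraries, 3 titled as the untreated model and 3 titled as blank, chosen by their titles, and the 16256 genes with enough reads to be tested. All animals were female Sprague-Dawley rats, 24 in 3 groups of 8, and the labels give no age. The blank group had no operation. In the SUI group both ovaries were removed and the vagina was distended for 4 h with an 8-Fr Foley catheter holding 3 mL of saline under a 120 g weight, and no treatment followed. The remaining 3 libraries came from SUI rats given pelvic floor electrical stimulation, and they entered only the estimate of the spread between libraries. The deposited tables head the SUI columns "sham", a word that usually means a mock operation, whereas the titles and treatment labels of the same samples give the full model. The titles were followed, and every fold change rests on that reading. No group had the ovaries removed alone or distension alone, so surgery, loss of the ovaries and distension cannot be told apart. The sources number the libraries within a group but do not say how they relate to its rats, so p-values measure only the spread between these libraries, which may be technical.

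The pubococcygeus is a striated muscle of the pelvic floor that supports the urethra and vagina, and stress urinary incontinence is leakage of urine when abdominal pressure rises. Skeletal muscle passes its force outward through a sheath of collagens, proteoglycans and matricellular proteins, made largely by fibroblasts, and the coactivators MRTF and YAP couple mechanical load to gene expression. Fibres that lose their nerve supply re-express acetylcholine receptor and other denervation genes and raise ubiquitin ligases, which mark proteins for the proteasome. Ovarian hormones, growth hormone and glucocorticoids also act on muscle.

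The 6 libraries held 50833480 to 121185745 counts, and levels below are CPM (counts scaled to the TMM-adjusted library size) unless FPKM, a value per gene length, is named. The muscle label was checked against 12 defining skeletal muscle genes, which were all tested and summed to 115400 to 117700 CPM in blank and 83010 to 143000 in SUI, and skeletal actin Acta1 had 16750 to 32040 FPKM. Blank replicate 1 was the shallowest library and stood apart: 32.9% of its counts were mitochondrial against 13.4% to 17.2% in the other 5. Its median correlation with the rest of the series' 9 libraries was 0.920, against 0.949 for SUI replicate 1 and 0.961 to 0.964 for the remaining 4. It also held relatively more reads of long genes, and the median log2 fold change ran from 0.10 in the shortest of 5 length classes to -0.11 in the longest, or from 0.03 to 0.01 without it. Some results that rest on blank replicate 1 or SUI replicate 1 are given with and without that library. Other values may also depend on these libraries. Of 18 epithelial markers 16 were found in the deposited tables and 9 were tested. The 16 summed to 10.1 to 17.1 CPM in blank and 4.73 to 28.8 in SUI. The summed level of a list covers all its genes found there, tested or not.

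No gene passed the main test, edgeR's quasi-likelihood test with Benjamini-Hochberg adjustment over all 16256 genes, where the lowest adjusted p was 0.2, shared by 18 genes. Every difference below is therefore a description with its error, and "higher" and "lower" give the side of the SUI libraries. At an unadjusted p under 0.05 there were 1329 genes, 8.18% of those tested, with 461 higher in SUI (2.84%) and 868 lower (5.34%). In 1194 genes (7.34%) all 3 SUI libraries lay above all 3 blank libraries, and in 1263 (7.77%) they lay below. DESeq2, run as an alternative on the same counts, called 37 genes higher (0.228%) and 139 lower (0.857%) of 16211 at an adjusted p under 0.05, and in 171 of these 176 the groups did not overlap. All log2 fold changes are SUI over blank from edgeR with their standard error. A DESeq2 adjusted p is added for some of the genes that DESeq2 called, so a gene given without it may also have been called.

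The split between higher and lower genes moved with the scaling. Lower genes made up 65.3% of those at an unadjusted p under 0.05 with TMM scaling, 46.5% when libraries were scaled to their totals, 36.1% on log2(FPKM + 0.1) and 32.2% on log2(FPKM + 1). Over all genes the log2 fold change had a median of 0.01 with TMM, 0.19 with library totals, 0.19 on log2(FPKM + 0.1) and 0.09 on log2(FPKM + 1). Without blank replicate 1 the lower share was 57.4%, and without blank replicate 3 there were 776 higher genes rather than 461. Values below are on the TMM scale, and a gene list is read beside the median of all genes, 0.01. Its counts at an unadjusted p under 0.05 are read beside 2.84% higher and 5.34% lower over all genes. Its counts without overlap are read beside 7.34% wholly above and 7.77% wholly below blank. Where leaving out one library moved a list's median much, its lowest and highest values with one blank or SUI library left out follow it, each with that library. For some lists this range is not given in full.

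**Figure D1:**
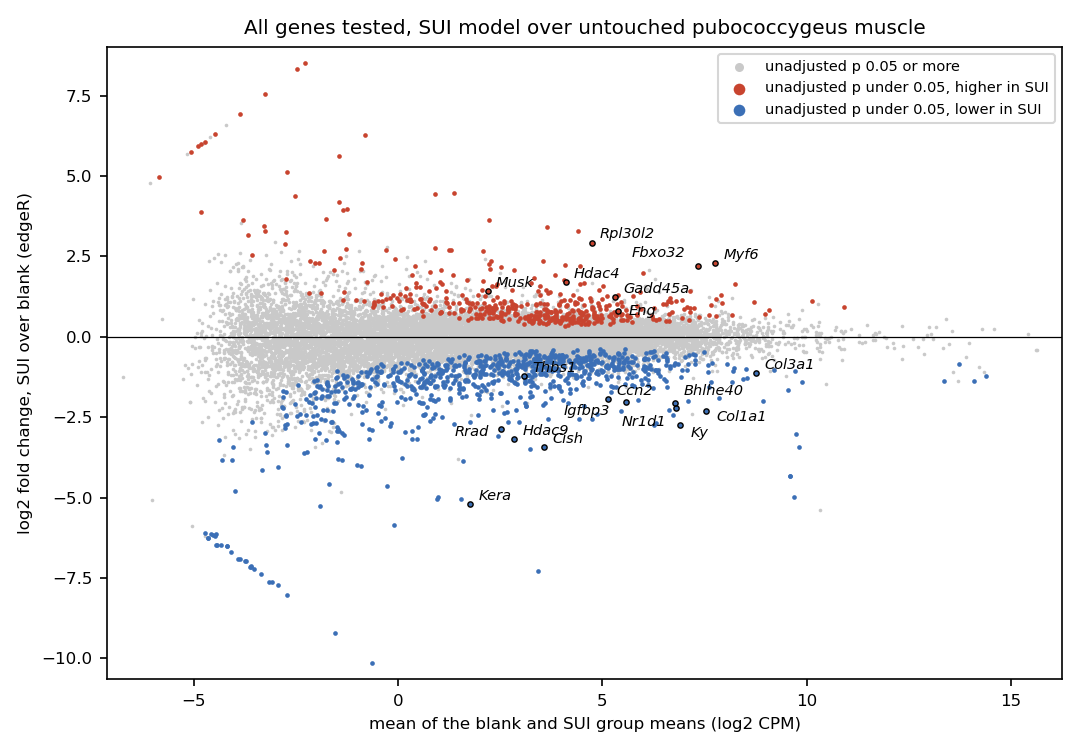
Log2 fold change (SUI over blank, edgeR) of the 16256 genes tested against the mean of the group means in log2 CPM. Genes at an unadjusted p under 0.05 are red where higher in SUI (461) and blue where lower (868), the rest are grey, and open circles mark 19 named genes.

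In the plot of all genes the lower Col1a1, Col3a1, Nr1d1 and Bhlhe40 and the higher Myf6, Hdac4 and Gadd45a lie among genes with many reads.

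The lower genes with the smallest p-values had varied roles. Rrad (chr19:354198-357417, mRatBN7.2), a small GTPase that restrains voltage-gated calcium channels, had 11.5, 8.69 and 9.84 CPM in blank and 1.74, 1.49 and 0.832 in SUI. Every SUI library was below every blank library, and the log2 fold change was -2.88 ± 0.44 (DESeq2 adjusted p = 6.53e-07). Tmem131l (chr2:169258289-169391711), which encodes a transmembrane protein, had 37.4, 31.1 and 30.7 CPM in blank and 13.6, 13.4 and 11.3 in SUI. The 3 libraries of each group lay close together and the groups did not overlap, with a log2 fold change of -1.37 ± 0.19 (DESeq2 adjusted p = 7.26e-07). Ntrk2 (chr17:5559043-5869136), the TrkB receptor for brain-derived neurotrophic factor, had 12.4, 15.4 and 8.55 CPM in blank and 2.72, 3.23 and 1.64 in SUI. The groups were apart (log2 fold change -2.26 ± 0.35, DESeq2 adjusted p = 1.46e-06). Rev3l, the catalytic subunit of DNA polymerase zeta, had 37.1, 29.6 and 29.9 CPM in blank and 15.4, 12.5 and 16.1 in SUI, also without overlap (log2 fold change -1.14 ± 0.20, or -0.99 with the trend over gene length removed).

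Rxfp1, the receptor for relaxin, a hormone that softens pelvic connective tissue, had 6.49, 8.47 and 2.05 CPM in blank and 0.186, 0.316 and 0 in SUI. All SUI libraries were close to 0 and below blank, and the log2 fold change of -5.06 ± 1.17 rests on few SUI reads (DESeq2 adjusted p = 0.000188).

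On the higher side, Myf6 (chr7:42812792-42814852), the myogenic regulatory factor MRF4 of mature fibres, had 53.0, 51.5 and 117 CPM in blank and 222, 415 and 438 in SUI. Every SUI library was above every blank library, and blank replicate 3 was the highest of its group (log2 fold change 2.28 ± 0.38, DESeq2 adjusted p = 3.16e-06). Eng, the endothelial TGF-beta co-receptor endoglin, had 27.7, 32.0 and 31.3 CPM in blank and 55.4, 54.4 and 50.6 in SUI. Its libraries varied little within a group (log2 fold change 0.82 ± 0.16, DESeq2 adjusted p = 5.08e-05). Map7d2, a microtubule-associated protein gene, had 3.87, 2.35 and 5.73 CPM in blank and 13.3, 59.4 and 43.1 in SUI, where SUI replicate 1 was the lowest of its group but above blank (log2 fold change 3.28 ± 0.67). Slc43a3, a purine nucleobase transporter, was at a log2 fold change of 1.57 ± 0.31. Fgfr3, a fibroblast growth factor receptor, was at 1.65 ± 0.40, and Slit3, a guidance ligand, at 1.03 ± 0.24, all 3 without overlap.

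**Figure D2:**
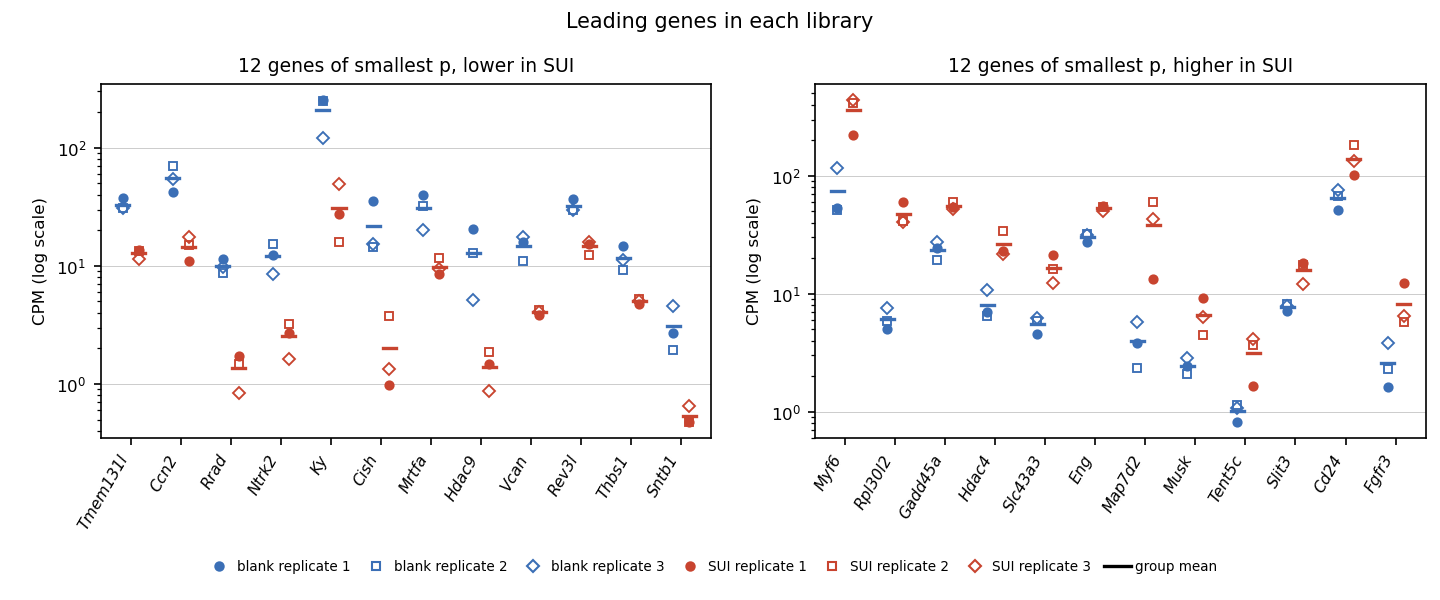
CPM on a log axis of the 12 lower (left) and 12 higher (right) genes of smallest p, among genes with a mean of at least 1 CPM and no overlap between groups, in each blank (blue) and SUI (red) library, with a marker for each replicate and a bar at the group mean. The groups are apart in every gene because the genes were chosen so.

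The plot of leading genes shows the spread within a group beside the gap between groups: it is small for Tmem131l, Gadd45a and Eng and wide for Cish, Hdac9 and Map7d2.

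Fibrillar collagens, small proteoglycans and matricellular genes lay almost wholly on the lower side. Of 11 fibrillar collagen genes 11 had a negative log2 fold change, against 49.2% of all genes, 8 were lower at an unadjusted p under 0.05, 9 did not overlap and DESeq2 called 4. Their median was -1.42, and -1.41 without blank replicate 1. Col1a1, a chain of type I collagen, had 370.5, 243 and 309 CPM in blank and 73.2, 38.8 and 75.3 in SUI (log2 fold change -2.30 ± 0.58, DESeq2 adjusted p = 0.00658). Its partner chain Col1a2 had 202, 289.7 and 378 CPM in blank and 125, 67.0 and 104 in SUI (-1.55 ± 0.51). Both chains were lower in every SUI library than in any blank library. Col3a1, the type III collagen of distensible tissue, had 592, 496 and 690.2 CPM in blank and 341, 132 and 340.3 in SUI (-1.13 ± 0.47), and Col5a1, which helps set fibril diameter, 41.4, 43.5 and 39.4 CPM in blank and 15.3, 13.2 and 17.9 in SUI (-1.42 ± 0.36, DESeq2 adjusted p = 0.0241). SUI replicate 2 held the lowest Col3a1 level, and neither gene overlapped. The minor fibrillar collagens Col11a1 and Col11a2 were at -2.70 ± 0.65 and -1.5 ± 0.35. Per length, the mean level of Col3a1 was 97.5 in blank and 52.7 in SUI FPKM, and that of Col1a1 40.7 in blank and 9.90 in SUI.

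The small leucine-rich proteoglycans, which coat and space collagen fibrils, had 11 of 11 negative values with a median of -1.0, and 8 were lower at an unadjusted p under 0.05, 4 without overlap. Their summed level was 620 to 762 CPM in blank and 419 to 599 in SUI. In FPKM the sums were 196, 325 and 352 in blank and 354, 211 and 174 in SUI, highest in SUI replicate 1. Ogn, osteoglycin, had 56.5, 54.1 and 52.8 CPM in blank and 30.0, 26.8 and 24.8 in SUI (-1.0 ± 0.22, DESeq2 adjusted p = 0.00827). Lum, lumican, had 57.2, 53.9 and 54.4 CPM in blank and 21.9, 22.9 and 38.7 in SUI (-0.99 ± 0.34). Both were nearly constant across the blank libraries, and all SUI libraries were lower. Kera, keratocan, had 4.16, 6.10 and 9.66 CPM in blank and 0.230, 0.307 and 0 in SUI, so that it was close to undetected in SUI (-5.19 ± 1.27, DESeq2 adjusted p = 0.0278). Aspn, asporin, was at -1.83 ± 0.52, without overlap.

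Of 18 matricellular genes, whose proteins signal to cells rather than bear load, 17 were negative with a median of -1.19, 9 were lower at an unadjusted p under 0.05 and 10 did not overlap. Their summed level was 973 to 1139 CPM in blank and 565 to 636 in SUI. The sums overlapped in FPKM, with 242 to 355 in blank and 166 to 252 in SUI. Ccn2 (chr1:20802199-20805734), connective tissue growth factor and a target of YAP and MRTF, had 42.3, 70.1 and 54.4 CPM in blank and 11.1, 15.0 and 17.6 in SUI (-1.93 ± 0.29, DESeq2 adjusted p = 7.26e-07). Vcan, the large proteoglycan versican, had 15.8, 11 and 17.5 CPM in blank and 3.88, 4.27 and 4.09 in SUI (-1.86 ± 0.32). Tnc, tenascin-C, had 5.43, 10.0 and 16.3 CPM in blank and 1.44, 2.96 and 1.86 in SUI (-2.35 ± 0.49). In all 3 genes the SUI libraries were below blank, and for Tnc the blank values spread widely. Thbs1, thrombospondin 1, an activator of latent TGF-beta, was at -1.22 ± 0.21 and Ccn3 at -1.61 ± 0.41.

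The other matrix lists had more genes on the higher side. Of 21 basement membrane and collagen VI genes 15 were negative (median -0.35) and 7 lower at an unadjusted p under 0.05, among them Col6a3 (-1.14 ± 0.38) and Col15a1 (-1.25 ± 0.40). Of 21 elastic fibre and crosslinking genes 17 were negative (median -0.42, or -0.63 without SUI replicate 2 to -0.25 without SUI replicate 3). The microfibril gene Fbn1, fibrillin 1, had 128, 99.5 and 111 CPM in blank and 35.2, 41.4 and 35.0 in SUI, without overlap (-1.6 ± 0.35, DESeq2 adjusted p = 0.00415), and the crosslinking enzyme Loxl2 was at -1.12 ± 0.36. Of 19 collagen processing enzymes 14 were negative (median -0.38), with Plod2, a collagen lysyl hydroxylase, at -0.99 ± 0.31. Of 15 other collagens 3 were lower at an unadjusted p under 0.05, among them Col12a1 (-1.16 ± 0.44). Matrix-degrading enzymes and their inhibitors had 10 positive and 8 negative values. Among them the gelatinase Mmp9 had 3.18, 1.08 and 2.47 CPM in blank and 0.708, 0.0994 and 0.0719 in SUI (-2.92 ± 0.87), the membrane-bound Mmp15 was at -1.23 ± 0.28 and Mmp11 at 1.54 ± 0.47. TGF-beta ligands, receptors and Smads belong to the pathway best known for driving collagen genes. Of 20 none was at an unadjusted p under 0.05, against 8.18% of all genes. Their median was -0.10, or -0.14 without SUI replicate 2 to 0.07 without SUI replicate 3. The part of this pathway in the collagen values was not tested.

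**Figure D3:**
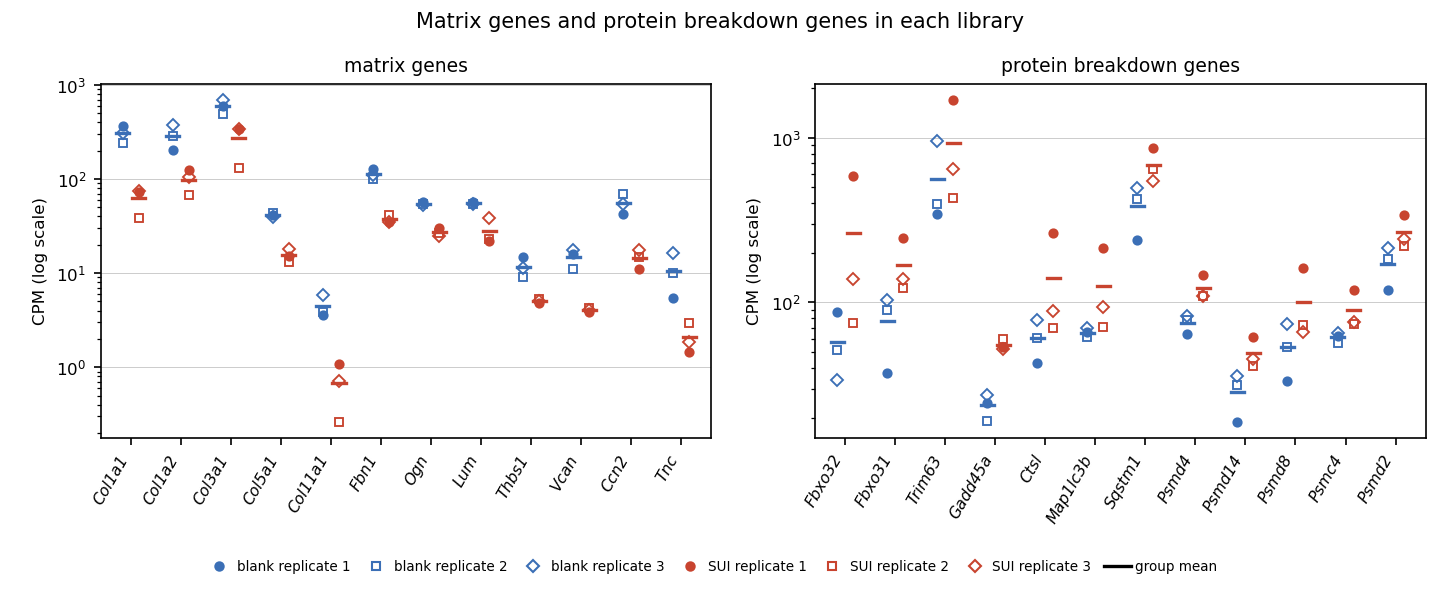
CPM on a log axis of 12 matrix genes (left) and 12 protein breakdown genes (right) in each blank (blue) and SUI (red) library, with a bar at the group mean. The genes shown were chosen by hand. The 12 matrix genes shown are lower in all 3 SUI libraries. In their lists 9 of 11 fibrillar collagens, 4 of 11 small proteoglycans and 10 of 18 matricellular genes lay wholly below blank. SUI replicate 1 is the highest library for Fbxo32, Ctsl and Map1lc3b.

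The plot of matrix and breakdown genes sets both groups of genes side by side. Of 15 markers of fibro-adipogenic progenitors, the interstitial fibroblasts of muscle, 13 were negative with a median of -0.67. Of the 15, 2 were lower at an unadjusted p under 0.05, 4 lay wholly below blank and 1 wholly above, against 5.34%, 7.77% and 7.34% of all genes. Their summed level was 1412 to 1806 CPM in blank and 1217 to 1444 in SUI, so the groups overlapped, and the part of these cells in the matrix values was not tested. The complement regulator Cd55 was at -1.28 ± 0.39 and Cd34, also carried by endothelial and satellite cells, at -1.39 ± 0.55. Of 18 tendon, cartilage and bone genes 16 were negative with a median of -1.97, or -1.21 without blank replicate 3, and their summed level was 147 to 269 CPM in blank and 80.9 to 106 in SUI. Cilp, cartilage intermediate layer protein, had 42.2, 108 and 68.4 CPM in blank and 8.24, 26.6 and 9.70 in SUI (-2.29 ± 0.50, DESeq2 adjusted p = 0.00119). Clec11a, a bone growth factor, had 3.57, 4.16 and 3.77 CPM in blank and 0.620, 1.05 and 1.25 in SUI (-1.98 ± 0.39, DESeq2 adjusted p = 0.000313). Neither overlapped. The tenocyte marker Tnmd had 0, 1.38 and 4.60 CPM in blank and 0.106, 0.127 and 0.205 in SUI, so blank replicate 1 lay below SUI, and bone sialoprotein Ibsp had 14.1, 0.906 and 1.87 CPM in blank and 0.779, 0.208 and 0.144 in SUI, highest in blank replicate 1. In bulk tissue fewer cells of a type and less RNA per cell cannot be told apart, and the part of tendon, cartilage or bone cells in these results was not tested.

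Growth hormone acts through JAK2 and STAT5, and STAT5 turns on the feedback inhibitors Cish and Socs2. The Cish promoter is shown because the gene was among those with the lowest DESeq2 adjusted p. It is given 5′ to 3′ from 250 bases before to 50 after the start site (RefSeq, GRCr8, chr8:116850719-116851018, plus strand), with each STAT motif TTCNNNGAA in capitals. The motif pattern reads the same on both strands.
Cish: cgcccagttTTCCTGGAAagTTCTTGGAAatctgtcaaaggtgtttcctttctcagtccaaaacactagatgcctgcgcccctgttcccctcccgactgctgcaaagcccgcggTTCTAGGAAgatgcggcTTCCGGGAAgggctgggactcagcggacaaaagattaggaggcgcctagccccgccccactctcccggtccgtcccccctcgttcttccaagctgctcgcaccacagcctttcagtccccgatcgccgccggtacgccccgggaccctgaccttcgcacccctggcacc
It holds 4 matches, and 8.87% of the 33465 promoters in the RefSeq table hold at least 1. Of the 12 tested genes of this axis with a promoter in the table, Cish and Socs1 held a match, which describes letters and is not evidence of binding.

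Cish (chr8:107972306-107977250, mRatBN7.2) had 35.7, 14.5 and 15.3 CPM in blank and 0.974, 3.75 and 1.34 in SUI. All SUI libraries were far below blank, blank replicate 1 was the highest, and the log2 fold change was -3.43 ± 0.56 (DESeq2 adjusted p = 6.53e-07), or -2.87 without that library. Socs2 had 13.5, 7.65 and 5.49 CPM in blank and 1.73, 2.88 and 3.31 in SUI, also without overlap (-1.75 ± 0.41, DESeq2 adjusted p = 0.00900). Stat3, which serves cytokine receptors, had 43.0, 55.7 and 84.8 CPM in blank and 119.9, 156 and 122 in SUI. It was higher in every SUI library (1.12 ± 0.30, DESeq2 adjusted p = 0.0393), while the receptor Ghr and the transducers Jak2, Stat5a and Stat5b were above an unadjusted p of 0.05. Of the 15 genes of the axis 8 were positive, with a median of 0.14, or -0.03 without blank replicate 3 to 0.16 without blank replicate 2.

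Among genes of insulin-like growth factor (IGF) signalling, Igfbp3, the main IGF-binding protein of blood, had 85.7, 92.3 and 51.1 CPM in blank and 20.5, 21.2 and 14.4 in SUI. The groups did not overlap (-2.03 ± 0.39, DESeq2 adjusted p = 0.000207). Igf1 itself had 18.0, 9.75 and 8.10 CPM in blank and 9.49, 3.73 and 3.36 in SUI, where SUI replicate 1 lay inside the blank range (-1.11 ± 0.55). The insulin receptor substrates Irs1 and Irs2 were at -1.54 ± 0.49 and -1.25 ± 0.55, and Irs1 was at -0.66 without blank replicate 1. Pappa2, a protease that frees IGF from its binding proteins, was at -3.17 ± 1.19. Of 19 genes 9 were positive and 10 negative with a median of -0.01 (-0.11 without SUI replicate 2 to 0.01 without SUI replicate 1), and 4 were lower and 0 higher at an unadjusted p under 0.05.

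Genes that sense or carry load were lower singly rather than as a list. Ky (chr8:103086630-103126024), a Z-disc protein needed for muscle growth under load, had 253, 247 and 121 CPM in blank and 27.4, 16.1 and 49.7 in SUI (-2.74 ± 0.44, DESeq2 adjusted p = 7.26e-07). Mrtfa (chr7:112544312-112714418), the actin-regulated coactivator of serum response factor, had 39.9, 32.3 and 20.1 CPM in blank and 8.54, 11.7 and 9.40 in SUI (-1.64 ± 0.28, DESeq2 adjusted p = 0.000111). Sntb1 (chr7:87060926-87329315), the dystrophin partner beta-1 syntrophin, had 2.73, 1.94 and 4.55 CPM in blank and 0.478, 0.479 and 0.647 in SUI (-2.52 ± 0.44, DESeq2 adjusted p = 2.12e-05). None of these 3 genes overlapped between groups. Synpo2l, an actin-binding Z-disc gene, was at -1.10 ± 0.30, or -0.61 without blank replicate 1. Yap1 was at -0.68 ± 0.21, or -0.44 without that library, and the stretch-gated channel Piezo2 at -2.02 ± 0.61. Of 27 Z-disc and load-sensing genes 18 were negative with a median of -0.09 (-0.28 without SUI replicate 2 to 0.06 without blank replicate 3), and 5 were lower and 1, Fhl3 (0.99 ± 0.35), higher at an unadjusted p under 0.05. The 21 genes of the dystrophin complex had a median of -0.12, or -0.19 without SUI replicate 2 to -0.02 without blank replicate 1.

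Denervation genes lay mostly on the higher side. Of 18 acetylcholine receptor and denervation genes 16 were positive, against 50.8% of all genes. Their median was 0.80, or 0.47 without SUI replicate 1 to 1.20 without blank replicate 3. It was 0.54 without blank replicate 1 and 0.33 without blank replicate 1 and SUI replicate 1. At an unadjusted p under 0.05, 5 of the 18 were higher and 2 lower. The list summed to 672, 645.5 and 1245 CPM in blank and 2643, 837 and 1066 in SUI. Thus SUI replicates 2 and 3 lay inside the blank range. Hdac4 (chr9:92507611-92750164), a histone deacetylase that relays denervation to the fibre's genes, had 6.96, 6.5 and 10.8 CPM in blank and 23.0, 34.1 and 21.6 in SUI (1.70 ± 0.30, DESeq2 adjusted p = 0.000137). Its relative Hdac9 (chr6:50763590-51325171) had 20.5, 12.9 and 5.16 CPM in blank and 1.48, 1.85 and 0.874 in SUI (-3.19 ± 0.54, DESeq2 adjusted p = 1.46e-06). These 2 deacetylases lay on opposite sides, each without overlap. Gadd45a, a stress gene that denervation raises, had 24.6, 19.2 and 27.4 CPM in blank and 53.9, 60 and 51.9 in SUI (1.22 ± 0.21, DESeq2 adjusted p = 0.000193), and sarcolipin Sln, an inhibitor of the sarcoplasmic calcium pump, 1.35, 0.837 and 3.19 CPM in blank and 9.79, 9.65 and 3.65 in SUI (2.10 ± 0.61, DESeq2 adjusted p = 0.0381). Both were above blank in every SUI library, Sln by little in SUI replicate 3.

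The receptor subunits were less clear. Chrna1 was at 0.83 ± 0.58 and Chrnd at 0.77 ± 0.36, and Chrna1 turned to -0.069 without blank replicate 1 and SUI replicate 1. Myog, myogenin, which drives these genes, had 14.8, 7.13 and 9.79 CPM in blank and 50.1, 9.23 and 10.4 in SUI. Its higher mean came from SUI replicate 1 (1.14 ± 0.62), without which the value was -0.12. Musk (chr5:73058121-73171932), the kinase that clusters receptors under the nerve ending, had 2.44, 2.09 and 2.87 CPM in blank and 9.17, 4.47 and 6.31 in SUI, without overlap (1.43 ± 0.30, DESeq2 adjusted p = 0.00250). It was the single gene of 14 junction scaffold genes at an unadjusted p under 0.05, against 8.18% of all genes. That list had a median of -0.21, or -0.42 without SUI replicate 3 to -0.03 without blank replicate 2. Vgll2, a muscle cofactor of TEAD factors, was lower (-1.15 ± 0.29, DESeq2 adjusted p = 0.0274), and the perinatal myosin Myh8 was at -1.01 ± 0.39.

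Channels and nerve-related genes varied one by one. Clcn1, the chloride channel that stabilises the resting fibre membrane, had 81.4, 102 and 70.4 CPM in blank and 30.1, 49.9 and 46.4 in SUI, without overlap (-1.0 ± 0.23, DESeq2 adjusted p = 0.0115). The potassium channels Kcna7 and Kcnq5 were at -1.37 ± 0.47 and 1.34 ± 0.41. Ntf4, a neurotrophin and ligand of TrkB, was at -1.36 ± 0.47, and the neurotrophin receptor Ngfr at -2.03 ± 0.83. Of 17 Schwann cell and myelin genes 14 were negative with a median of -0.57, or -1.01 without SUI replicate 3 to -0.26 without blank replicate 2, and 3 were lower at an unadjusted p under 0.05, among them Egr2 (-1.51 ± 0.45) and Pmp22 (-0.88 ± 0.31). Their summed level was 125 to 229.7 CPM in blank and 63.0 to 146 in SUI, so the groups overlapped.

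Proteasome and autophagy genes lay mostly higher, most of all in SUI replicate 1. Of 32 proteasome subunits 31 were positive with a median of 0.45, 8 were higher at an unadjusted p under 0.05 and 14 had all SUI libraries above blank. Their summed level was 2406, 2693 and 3056 CPM in blank and 4690, 3167 and 3293 in SUI, and the median was 0.26 without SUI replicate 1. Psmd4, a ubiquitin receptor of the proteasome, had 64.4, 78.2 and 82.6 CPM in blank and 146, 110 and 109 in SUI, without overlap (0.70 ± 0.20), and the deubiquitinating subunit Psmd14 was at 0.78 ± 0.26. Fbxo32, the atrophy ligase atrogin-1, had 87.5, 51.4 and 33.7 CPM in blank and 583, 74.8 and 138 in SUI. SUI replicate 1 stood far above the rest and SUI replicate 2 lay inside the blank range, with a log2 fold change of 2.21 ± 0.69, or 0.88 without SUI replicate 1. Trim63, the atrophy ligase MuRF1, had 564 ± 338 CPM in blank and 922 ± 674 in SUI (mean ± SD, n = 3 each) (0.71 ± 0.63), and was at -0.08 without SUI replicate 1. Of 20 atrophy ligase and FoxO genes 14 were positive with a median of 0.07, or 0.05 without SUI replicate 2 to 0.20 without blank replicate 3. Of 31 autophagy genes 26 were positive with a median of 0.26, or 0.14 without blank replicate 1. The cargo receptor Sqstm1 was at 0.83 ± 0.31, and the lysosomal protease Ctsl at 1.22 ± 0.46, or 0.37 without SUI replicate 1.

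**Figure D4:**
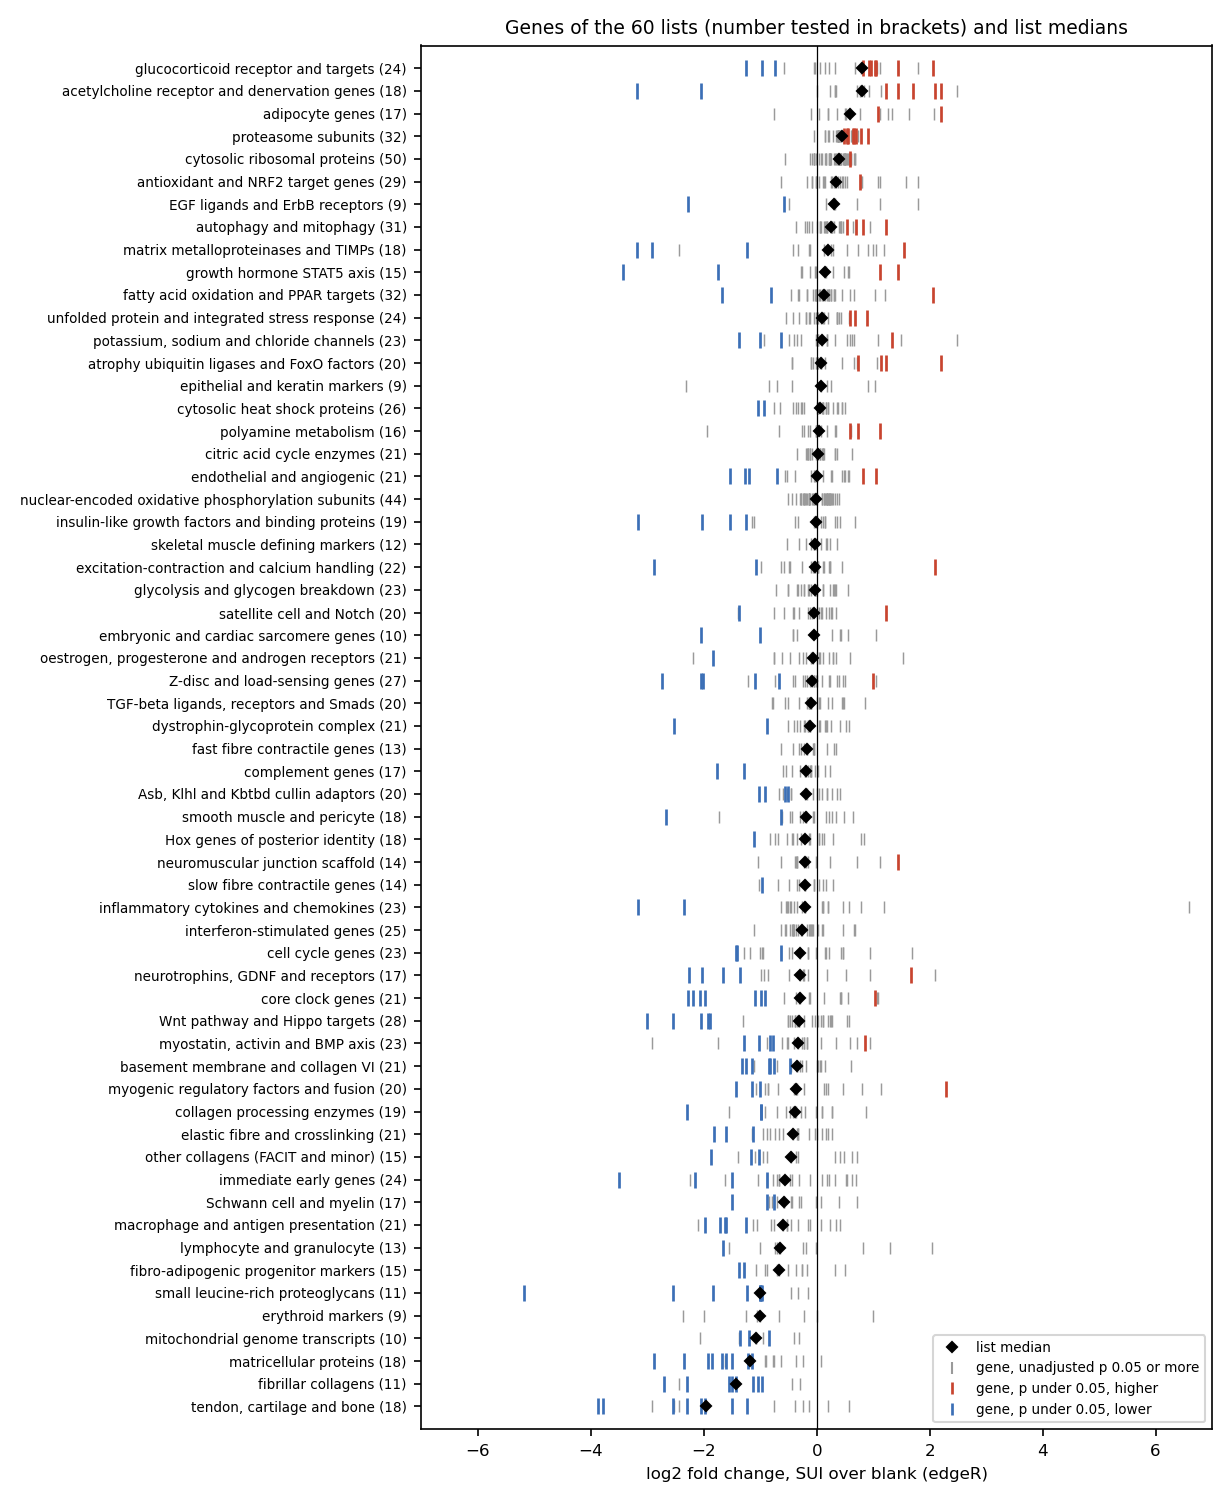
Log2 fold change (SUI over blank, edgeR) of each gene of the 60 lists as a tick, red or blue where its unadjusted p was under 0.05 and grey otherwise, with a diamond at the list median and lists ordered by it. With all libraries, tendon, cartilage and bone genes and fibrillar collagens have the lowest medians, an order that did not hold without blank replicate 3, and glucocorticoid targets and denervation genes the highest.

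The plot of gene lists shows 41 medians below 0 and 19 above, and wide overlap of single genes between lists.

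Of the 7 clock genes lower in SUI at an unadjusted p under 0.05, 5 are repressors. BMAL1 and CLOCK bind E-boxes and drive Nr1d1, Nr1d2, Bhlhe40, Bhlhe41 and Ciart, which feed back to repress the clock. Promoters of 3 of them were chosen for display because they hold the E-box CACGTG, given in capitals, over the same window as above (RefSeq, GRCr8): Ciart at chr2:186112197-186112496 (minus strand), Bhlhe40 at chr4:143174200-143174499 (plus strand) and Bhlhe41 at chr4:180569306-180569605 (minus strand).
Ciart: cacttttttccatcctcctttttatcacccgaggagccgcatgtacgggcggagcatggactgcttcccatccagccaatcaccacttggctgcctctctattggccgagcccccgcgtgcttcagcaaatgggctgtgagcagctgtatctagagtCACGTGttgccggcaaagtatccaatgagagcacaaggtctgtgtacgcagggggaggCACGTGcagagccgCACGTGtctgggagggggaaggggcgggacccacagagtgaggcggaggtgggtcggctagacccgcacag
Bhlhe40: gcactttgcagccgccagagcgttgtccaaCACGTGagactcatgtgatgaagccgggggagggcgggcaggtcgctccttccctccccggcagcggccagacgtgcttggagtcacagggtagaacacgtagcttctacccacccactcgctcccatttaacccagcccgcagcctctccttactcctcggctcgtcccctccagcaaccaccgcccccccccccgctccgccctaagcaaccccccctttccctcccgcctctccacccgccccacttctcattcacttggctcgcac
Bhlhe41: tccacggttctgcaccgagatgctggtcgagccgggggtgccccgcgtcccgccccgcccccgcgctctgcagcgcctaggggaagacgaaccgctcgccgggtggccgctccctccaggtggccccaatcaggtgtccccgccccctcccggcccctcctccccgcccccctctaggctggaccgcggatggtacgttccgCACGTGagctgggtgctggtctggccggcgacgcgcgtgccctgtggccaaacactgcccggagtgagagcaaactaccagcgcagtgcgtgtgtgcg
Ciart holds 3 E-boxes and the other two 1 each, and 6.42% of all promoters in the table hold this hexamer, which reads the same on both strands. Nr1d1 has 2 promoters in the table, 1 with an E-box and 1 without, and is counted below as holding it, while those of Nr1d2, Dbp and Npas2 hold none. Among the 17 tested clock genes that have a promoter there, 5 held it, 4 of the 7 lower at an unadjusted p under 0.05 and 1 of the other 10. This split is a description, since the genes were grouped by their values.

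Bhlhe40 had 234, 188 and 109 CPM in blank and 22.3, 69.6 and 35.4 in SUI (-2.06 ± 0.42, DESeq2 adjusted p = 0.000643). Bhlhe41 had 271, 125 and 95.8 CPM in blank and 8.96, 48.0 and 44.6 in SUI (-2.28 ± 0.60, DESeq2 adjusted p = 0.0115), and -1.70 without blank replicate 1. In both, SUI replicate 1 was the lowest library and the groups did not overlap. Ciart had 16.8, 24.6 and 36.9 CPM in blank and 3.66, 10.3 and 6.0 in SUI (-1.97 ± 0.46, DESeq2 adjusted p = 0.00499). Nr1d1, the nuclear receptor REV-ERB alpha, had 248, 133 and 167 CPM in blank and 50.4, 43.0 and 25.9 in SUI (-2.20 ± 0.45, DESeq2 adjusted p = 0.000568), and Nr1d2, REV-ERB beta, 117, 81.9 and 79.4 CPM in blank and 49.9, 44.5 and 46.2 in SUI (-0.98 ± 0.21, DESeq2 adjusted p = 0.00395). These 5 repressors were taken from the genes lower at an unadjusted p under 0.05 and do not stand for all clock repressors. They were lower in every SUI library, as were the output factor Dbp (-0.92 ± 0.33) and the activator Npas2 (-1.10 ± 0.47). Bmal1, Clock, Per1, Per2 and Per3 were above an unadjusted p of 0.05. Of 21 clock genes 13 were negative, 7 were lower and 1 higher at an unadjusted p under 0.05, and 8 lay wholly below and 3 wholly above blank. Their median was -0.30, or -0.08 without blank replicate 1, and it changed sign on both FPKM scales, with 0.04 on log2(FPKM + 0.1). The labels give no hour of sampling, so hour of day and group cannot be told apart.

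Glucocorticoid targets lay mostly higher and the receptor lower. Of 24 genes 18 were positive with a median of 0.80, or 0.53 without blank replicate 1 to 1.19 without blank replicate 3. At an unadjusted p under 0.05, 7 were higher and 3 lower. The list's mean log2 CPM, less the mean of the 9 libraries, was -0.84, -0.42 and 0.34 in blank. In SUI it was 0.27, 0.30 and 0.34, so blank replicate 3 lay as high as the SUI libraries. The receptor Nr3c1 had 114, 70.0 and 74.4 CPM in blank and 36.5, 52.0 and 43.2 in SUI, without overlap (-0.97 ± 0.24, DESeq2 adjusted p = 0.0352). Hsd11b1, which makes active glucocorticoid within tissues, had 6.49, 13.2 and 11.2 CPM in blank and 21.1, 17.9 and 15.8 in SUI, with every SUI library above blank (0.82 ± 0.31). Glutamine synthetase Glul was at 0.92 ± 0.34, the kinase Sgk1 at 1.03 ± 0.34, the lipoprotein lipase inhibitor Angptl4 at 2.06 ± 0.71 and the cell cycle inhibitor Cdkn1a at 1.44 ± 0.53. Fkbp5, a sensitive target, had 24.2, 37.4 and 169.6 CPM in blank and 115, 221 and 294 in SUI, and its groups overlapped (1.45 ± 0.77).

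Receptors for ovarian hormones were low and variable. Esr1, oestrogen receptor alpha, had 2.81 ± 1.10 CPM in blank and 1.84 ± 1.6 in SUI (mean ± SD, n = 3 each) (-0.61 ± 0.69), and was at 0.17 without blank replicate 1 and SUI replicate 1. Pgr, the progesterone receptor, had 0.318, 0.434 and 0.128 CPM in blank and 0.0620, 0.127 and 0 in SUI (-2.19 ± 1.21), low levels in every library. Esr2 was too low to test. Greb1, an early oestrogen target, was the single gene of 21 in this list at an unadjusted p under 0.05 (-1.84 ± 0.73), against 8.18% of all genes, and its groups overlapped. The list median was -0.07, or -0.21 without blank replicate 2 to 0.04 without SUI replicate 3.

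The fast fibre, slow fibre, nuclear-encoded oxidative phosphorylation, glycolysis and citric acid cycle lists each had at most 1 gene at an unadjusted p under 0.05. Fast fibre genes had 0 of 13 and slow fibre genes 1 of 14 at an unadjusted p under 0.05, with medians of -0.16 and -0.21. With one library left out the fast median ran from -0.40 without SUI replicate 3 to 0.13 without SUI replicate 1, and the slow median from -0.51 without SUI replicate 2 to -0.02 without SUI replicate 1. The slow myosin Myh7 was at -0.34 ± 0.37 and the fast IIa myosin Myh2 at -0.42 ± 0.32, both lowest in SUI replicate 1, and they were at 0.071 and 0.088 without blank replicate 1 and SUI replicate 1. Myh1 and Myh4 are not analysed here. Nor are the fast fibre genes Atp2a1 and Myl1 and the glycolysis genes Aldoa, Gapdh, Ldha, Pkm and Tpi1. The counts thus cover 13 of 17 fast fibre genes listed, 23 of 28 glycolysis genes and 44 of 48 nuclear-encoded oxidative phosphorylation genes. Nuclear-encoded oxidative phosphorylation genes (44, median -0.01, or -0.12 without SUI replicate 3 to 0.09 without SUI replicate 1), glycolysis genes (23, median -0.04, or -0.20 without SUI replicate 3 to 0.08 without SUI replicate 1) and citric acid cycle genes (21, median 0.02, or -0.07 without SUI replicate 3 to 0.09 without SUI replicate 1) had none at an unadjusted p under 0.05. Of 13 mitochondrial genome transcripts listed, 10 were found by symbol and tested, without Mt-atp6, Mt-co3 and Mt-nd4. All 10 were negative with a median of -1.08, or -0.15 without blank replicate 1, the library with the high mitochondrial share. Of 50 ribosomal protein genes 43 were positive with a median of 0.40, or 0.21 without blank replicate 1.

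Markers of other cells were mixed. Of 21 macrophage and antigen presentation genes 17 were negative with a median of -0.60, or -1.02 without SUI replicate 1 to -0.34 without blank replicate 3, 5 were lower at an unadjusted p under 0.05, and the summed level was 237 to 462 CPM in blank and 203 to 335 in SUI. The macrophage gene Adgre1 had 4.16, 4.35 and 5.01 CPM in blank and 1.45, 2.26 and 0.668 in SUI (-1.62 ± 0.56). Ptprc, carried by all leukocytes, had 8.66, 7.00 and 4.44 CPM in blank and 2.36, 2.26 and 1.71 in SUI (-1.66 ± 0.56). Both were lower in every SUI library, as were the class II genes RT1-Ba (-1.71 ± 0.54) and RT1-Bb (-1.6 ± 0.53) and the monocyte receptor Ccr2 (-1.98 ± 0.86). The 23 lymphocyte and granulocyte genes, 13 of them tested, summed to 25.3 to 31.6 CPM in blank and 11.6 to 21.1 in SUI. Of the 13, 1 was lower at an unadjusted p under 0.05. The mean log2 CPM of the 13, less the mean of the 9 libraries, overlapped between groups. It was -0.44, 0.91 and 0.05 in blank and -0.15, 0.29 and -0.39 in SUI. Of 25 interferon-stimulated genes none was at an unadjusted p under 0.05.

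Of 21 endothelial genes 11 were positive and 10 negative. Beside Eng, the VEGF receptor Kdr had 37.3, 23.0 and 8.41 CPM in blank and 7.80, 8.06 and 7.66 in SUI (-1.54 ± 0.44), where blank replicate 3 came close to the SUI level. The vessel-stabilising ligand Angpt1 was at -1.26 ± 0.38 and the apelin receptor Aplnr at 1.04 ± 0.42. Of 17 adipocyte genes 15 were positive with a median of 0.58, or 0.24 without SUI replicate 3 to 1.01 without blank replicate 2, and their summed level was 8290, 8332 and 8573 CPM in blank and 6668, 7268 and 13490 in SUI, so that only SUI replicate 3 was above blank. Fasn, fatty acid synthase, had 5.64, 11 and 6.94 CPM in blank and 8.03, 10.1 and 90.0 in SUI, and it too was high in SUI replicate 3 alone, whereas Acaca, which makes its substrate, was higher in all 3 SUI libraries (1.09 ± 0.32).

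**Figure D5:**
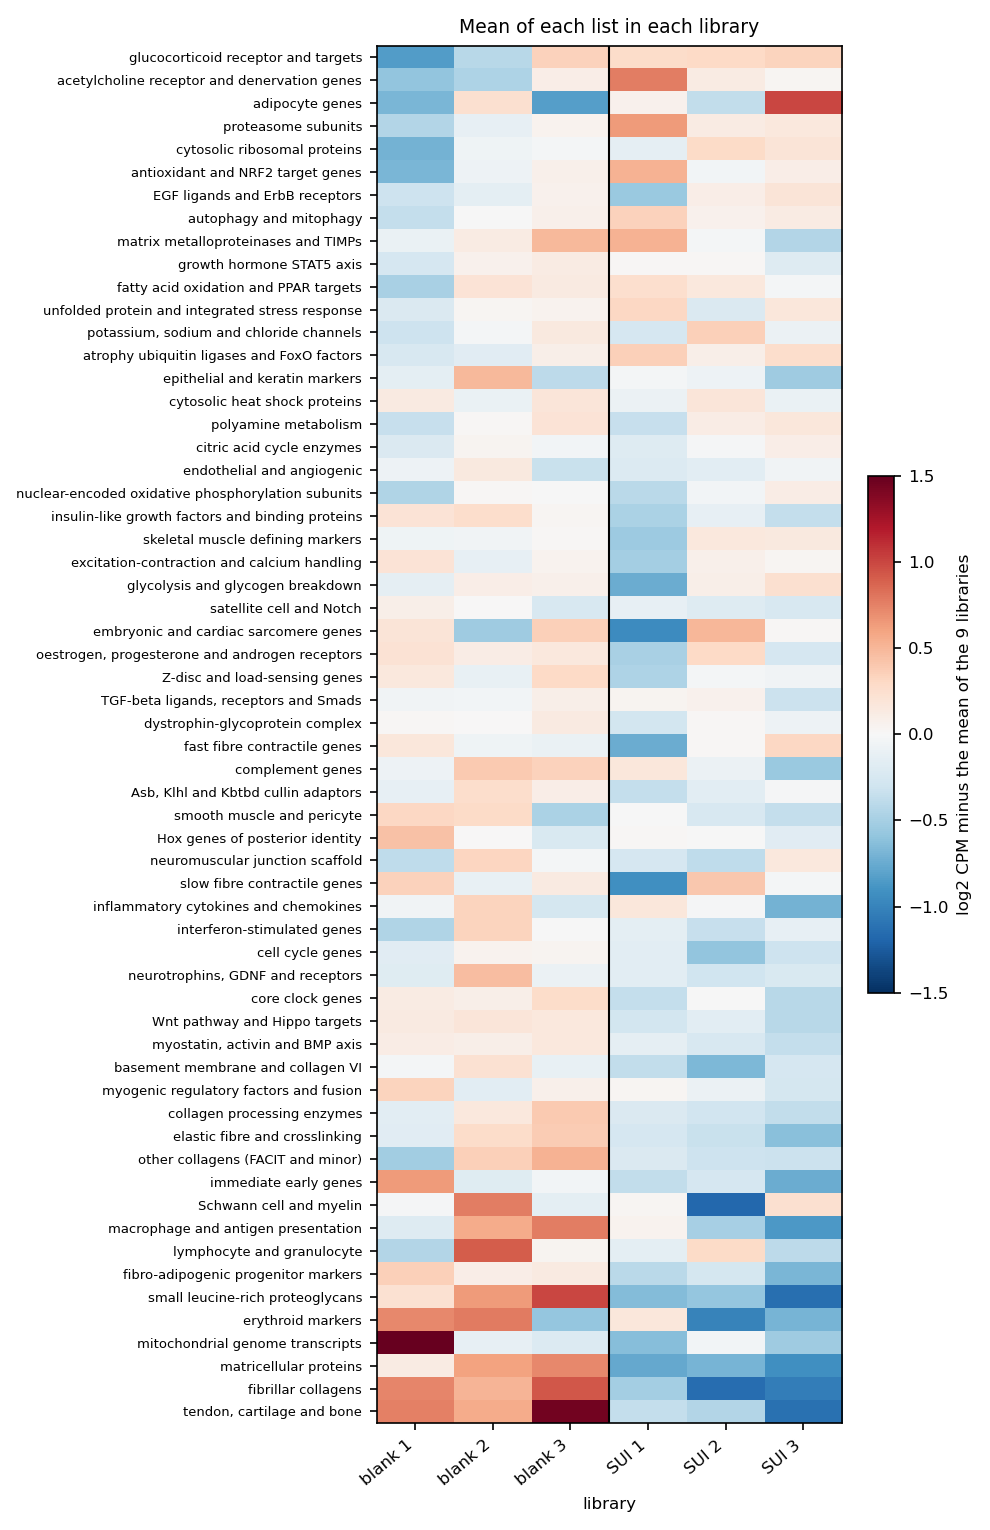
Mean over each list's genes of log2 CPM minus the mean of the 9 libraries, as colour from blue (below) to red (above), in each blank and SUI library (columns) for the 60 lists (rows). Fibrillar collagens, proteoglycans and matricellular genes are above 0 in all 3 blank libraries and below 0 in all 3 SUI libraries.

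The plot of lists by library shows which patterns the 3 libraries of a group share. Fibrillar collagens deviated by 0.73, 0.51 and 0.93 in blank and -0.51, -1.15 and -1.03 in SUI, proteasome subunits by -0.44, -0.12 and 0.06 in blank and 0.64, 0.12 and 0.16 in SUI and mitochondrial genome transcripts by 1.56, -0.12 and -0.21 in blank and -0.64, -0.04 and -0.54 in SUI. The first pattern is shared within groups, the second is strongest in SUI replicate 1 and the third is set by blank replicate 1.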

How the data were processed

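RNA-seq of pubococcygeus muscle gave 9 libraries, 3 per group, under one batch label. The authors deposited a table of expected counts, whole numbers in every cell, and a table of FPKM values per gene and library. Per the submitters' processing notes, Bowtie2, RSEM 1.3.1, DESeq2 1.4.5 and the build mRatBN7.2 were used. The labels and notes do not say whether counting used strand, so overlapping and antisense genes may share reads, as may paralogs. Groups were taken from titles, although the deposited tables name the SUI columns "sham". Of 30518 rows, 4341 had no symbol (0.956% to 1.57% of counts).

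Counts were tested with edgeR 4.0.16 in R 4.3.3 (TMM, filterByExpr, robust quasi-likelihood fit, all 9 libraries, SUI minus blank, Benjamini-Hochberg over 16256 genes). Alternatives were DESeq2 1.42.0, voom with sample weights and limma 3.58.1 on log2(FPKM + 1) and log2(FPKM + 0.1), other scalings and filters, removal of the length trend, a replicate block and leaving out libraries. The fit was tested on simulated data. Named genes were the 12 of smallest p in each direction with a mean CPM of at least 1 and no overlap, the 6 largest changes in each direction among such genes at p under 0.01, up to 6 genes of each of 60 lists by smallest p, a fixed set of muscle, hormone and clock genes, and genes at 0 in one group. Chrnd, Npas2 and Rpl30 fall outside this rule and were named after their values were seen. The comparison and the lists were chosen with earlier results of these data known. Lists are described by counts and medians alone. Promoters came from RefSeq (GRCr8), and no coordinates were converted between builds. Depth of 50833480 to 121185745 counts sets the precision of low genes, and 3 libraries per group set that of the rest.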

Additional observations from a re-analysis of the deposited data

How the results depend on the processing

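Of 22 alternatives, none but DESeq2 (176 genes) and leaving out one library (0 to 1 gene, Rpl30l2 without stimulated replicate 2) gave genes past an adjusted p of 0.05. The 461 higher genes at an unadjusted p under 0.05 became 303 with 6 libraries, 717 on log2(FPKM + 1), 797 with voom and 350 to 776 with one library left out. The 868 lower genes became 433 with library totals, 386 on log2(FPKM + 0.1), 341 on log2(FPKM + 1) and 593 to 1154 with one library left out. The cause was not tested. Without blank replicate 1, 708 of the 1329 genes (53.3%) were shared, and with library totals 804 (60.5%). With the replicate block there were 369 higher and 695 lower genes and 0 called; same-numbered blank and SUI libraries correlated at 0.03, -0.07 and 0.03, so the numbers were not taken to pair libraries. Over 138 named genes and all alternatives, 8 of 3029 values reversed, in 6 genes: Chrna1 (-0.058 with voom, -0.069 without blank replicate 1 and SUI replicate 1; 0.31 to 1.23 with one library left out), Myog (-0.12 without SUI replicate 1; -0.12 to 1.51), Trim63 (-0.08 without SUI replicate 1, -0.33 without both; -0.08 to 1.32), and, without both, Myh7 (0.071; -0.72 to -0.044), Myh2 (0.088; -0.60 to -0.057) and Esr1 (0.17; -1.47 to -0.11). Of 60 lists 28 kept the sign of their median in every setting.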

Other observations

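Rpl30l2, a gene similar to the ribosomal protein gene Rpl30, was among the higher genes of smallest p, with 5.03, 5.84 and 7.64 CPM in blank and 59.6, 41.0 and 40.7 in SUI (log2 fold change 2.93 ± 0.49), while Rpl30 was at -0.56 ± 0.41. Reads shared between such copies could be split in counting, so both values are uncertain.

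Some genes had no count in one group. Glp2r had 0 counts in the 3 blank libraries and 13, 0 and 516 in SUI. An unnamed gene, ENSRNOG00000069167, had 42, 263 and 69 counts in blank and 0 in all SUI libraries.

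Immediate early genes had 16 of 24 negative values with a median of -0.57, or -0.69 without blank replicate 2 to -0.16 without blank replicate 1. It was -0.37 without SUI replicate 3. Hbegf, an EGF receptor ligand, had 3.68, 4.72 and 16.4 CPM in blank and 1.65, 1.82 and 1.68 in SUI (log2 fold change -2.27 ± 0.51, DESeq2 adjusted p = 0.00195). Gadd45b, a relative of Gadd45a, was lower at -2.16 ± 0.56, or -1.53 without blank replicate 1. The secreted Wnt inhibitor Sfrp4 had 25.5, 22.8 and 88.9 CPM in blank and 3.73, 12.8 and 6.88 in SUI. It was at -2.55 ± 0.76, with blank replicate 3 far above the rest, and at -1.63 at the weakest with one library left out.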
